A study of Mus musculus with 20 samples.

Results

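Described here are 4 of the 23129 genes named in the count table: Serpina3h, Gnb3, Cyba and Cited2. They were selected because their level differed in the same direction between Phf6-deficient and wild-type AgRP neurons in fed mice and in fasted mice. The selection used the measured genotype differences themselves, so those differences are given as a description, without a test. The measure tested for these genes is the change with fasting averaged over both genotypes, a contrast whose weights are orthogonal to those of both genotype differences.

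The libraries were made from tdTomato-positive neurons sorted from hypothalamic punches of C57BL/6 mice aged 25 to 30 days. The wild-type mice were AgRP-Cre/+; Ai9/+ and the conditional knockout (cKO) mice were Phf6 flox/y; AgRP-Cre/+; Ai9/+, as littermates. Both genotypes therefore carry the Cre transgene and the Cre-dependent tdTomato reporter Ai9, and recombination is limited to cells in which AgRP-Cre is or has been active. Each genotype was studied fed or after an overnight fast, with food removed at 5 pm on the day before and water left in place. This gave 4 groups of 5 libraries (20 libraries, 1000 cells per sample). The labels do not say whether each library came from a separate mouse, so the p-values measure the spread between these libraries, which may be partly technical.

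AgRP neurons of the arcuate nucleus release agouti-related peptide, neuropeptide Y and GABA, and they promote feeding when energy stores are low. Phf6 encodes an X-linked PHD-finger protein of the nucleus that associates with chromatin and is mutated in Börjeson-Forssman-Lehmann syndrome. The genes chosen have unrelated roles. Serpina3h belongs to the mouse Serpina3 cluster, an expanded family of genes related to human SERPINA3 (antichymotrypsin), a secreted inhibitor of serine proteases. Gnb3 encodes the beta-3 subunit of heterotrimeric G proteins, which pairs with a gamma subunit to carry signals from G-protein-coupled receptors to channels and enzymes. Cyba encodes p22phox, the membrane partner that stabilises NADPH oxidase catalytic subunits, enzymes that make superoxide. Cited2 encodes a transcriptional regulator without a DNA-binding domain that binds the coactivators p300 and CBP and limits the activity of the hypoxia-inducible factor HIF-1.

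On GRCm38 (GENCODE M21), Serpina3h lies on the plus strand of chromosome 12 from 104247905 to 104253669, with 5 exon blocks and 1434 exon bases. The annotation classes it as a transcribed unprocessed pseudogene. Gnb3 lies on the minus strand of chromosome 6 from 124834240 to 124840275, with 10 exon blocks. Cyba lies on the minus strand of chromosome 8 from 122424776 to 122432930, with 7 exon blocks, inside the span of the opposite-strand gene Gm20388 but with 0 exon bases in common. Cited2 is a gene of 1 exon block on the plus strand of chromosome 10, from 17723218 to 17725674.

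Because Serpina3h has close relatives, the letters that separate it from them decide whether its reads can be told apart. The stretch of its transcript from base 729 to base 788 is shown beside the coding sequences of its 3 closest tested relatives. It was chosen as the 60 bases, aligned without gaps, that differ most in sum from these 3. No other window that could be compared in this way differed more in sum. Serpina3g aligned over only 582 of the 1239 transcript bases, so much of the transcript was not compared. In Serpina3h, capitals mark the 17 bases that differ in at least 1 relative, and in each relative they mark the bases that differ from Serpina3h.
Serpina3h: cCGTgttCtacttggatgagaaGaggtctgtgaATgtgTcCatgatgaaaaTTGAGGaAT
Serpina3f: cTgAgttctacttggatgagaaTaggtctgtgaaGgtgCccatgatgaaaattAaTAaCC
Serpina3i: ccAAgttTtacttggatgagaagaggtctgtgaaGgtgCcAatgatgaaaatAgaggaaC
Serpina3g: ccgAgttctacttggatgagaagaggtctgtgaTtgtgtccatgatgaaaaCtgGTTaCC
Over the aligned bases, the Serpina3h transcript was 90.1% identical to Serpina3f, 89.8% to Serpina3i, 84.5% to Serpina3g, 83.3% to Serpina3n and 83.0% to Serpina3c. Of its 50-base words, 21.9% also occurred in another gene's transcript, and of its 100-base words 3.6% did. The counts of Serpina3h are therefore uncertain to the extent that shared reads were counted, and the rule used for such reads is not given in the sources used here. For Cyba the share was 2.39% at 50 bases and 0 at 100, and Gnb3 and Cited2 had no shared word at either length.

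RefSeq promoter sequences (GRCm38.p6) were matched for Cyba and Cited2, which stand for a gene lower and a gene higher in cKO neurons. The 250 bases before each start are printed 5′ to 3′ on the gene's strand, at chr8:122432941-122433190 (minus) and chr10:17722978-17723227 (plus). Capitals mark GC boxes (GGGCGG on either strand) in both and CACGTG in Cited2.
Cyba: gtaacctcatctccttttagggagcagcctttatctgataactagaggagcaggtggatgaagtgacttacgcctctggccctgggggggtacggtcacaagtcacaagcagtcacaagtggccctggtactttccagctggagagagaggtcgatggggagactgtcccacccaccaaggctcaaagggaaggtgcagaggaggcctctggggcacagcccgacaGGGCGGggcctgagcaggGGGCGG
Cited2: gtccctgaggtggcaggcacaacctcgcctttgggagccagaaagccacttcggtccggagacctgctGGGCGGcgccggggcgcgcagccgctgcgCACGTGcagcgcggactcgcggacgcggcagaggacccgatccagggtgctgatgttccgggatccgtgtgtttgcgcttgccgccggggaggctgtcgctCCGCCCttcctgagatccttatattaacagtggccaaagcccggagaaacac
Cited2's window held 26 CpG dinucleotides at 66.8% GC and Cyba's held 6 at 60.0%, beside medians of 6 CpG and 52.4% over 32851 promoters of the same length. Each window held 2 GC boxes, a motif present in 32.7% of those promoters. ACGTG, the A form of the core recognised by HIF, matched Cited2 2 times, once on each strand of the same CACGTG, and it occurred in 16.6% of promoters. Neither window held CCAAT (33.8% of promoters), TATAAA (12.4%), GCGTG (28.2%), TGACGTCA (1.55%) or TGANTCA (6.75%) on either strand. These matches describe letters only.

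Libraries held 8494499 to 13573524 counts, and every fasted library held fewer than any fed one. Where a gene had 0 counts, up to 3 could have been missed by chance, which is 0.207 to 0.387 counts per 1e6 counts of a library (CPM). That limit is for counting error alone, because reads amplified by PCR without identifiers do not each stand for a molecule. All 4 genes passed the filter on low counts, with the lowest single count at 24 (Cyba, fed cKO). Phf6 itself, the check on the labels, measured 276 ± 10.2 CPM for fed wild-type, 70.7 ± 4.85 for fed cKO, 128 ± 11 for fasted wild-type and 61.2 ± 6.90 for fasted cKO libraries (SD, n = 5 each). Its cKO libraries lay below every wild-type library of the same feeding state, and its level was also 2.16-fold lower in fasted than in fed wild-type neurons. The AgRP neuron markers summed to 20826 CPM or more in every library, with Npy and Agrp the most abundant. Fasted replicates 1 and 2 of the wild type stood apart from replicates 3 to 5 in that sum, at 84071 CPM or more against 61029 or less, so the fasted genotype differences of the 4 genes are also given for each set. The fasted counts over lists and neighbours were not split in this way. Bulk values cannot tell fewer cells of a type from less RNA per cell.

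Serpina3h had the largest genotype difference of the 4 genes in both feeding states. In fed wild-type libraries it measured 37.5, 34.2, 27.1, 29.7 and 29.0 CPM, and in fed cKO libraries 6.63, 7.59, 6.31, 5.62 and 5.75 CPM. In fasted wild-type libraries it measured 34.5, 45.5, 26.8, 31.4 and 29.3 CPM, and in fasted cKO libraries 6.38, 7.97, 7.65, 9.87 and 11.7 CPM. Every cKO library lay below every wild-type library, and the highest cKO value was a fasted one. The mean was 31.5 ± 4.25 CPM in fed wild-type and 6.38 ± 0.79 CPM in fed cKO libraries, 4.93-fold lower (log2 fold change -2.30 ± 0.15 SE). Fasted, it was 33.5 ± 7.26 and 8.71 ± 2.09 CPM, 3.85-fold lower (-1.94 ± 0.16). The fasted difference was -2.46 ± 0.21 in replicates 1 and 2 alone and -1.59 ± 0.16 in replicates 3 to 5 alone, with no change of direction.

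Gnb3 was also lower in cKO neurons in both states. Fed wild-type libraries held 15.9, 19.8, 17.7, 20.6 and 22.6 CPM, and fed cKO libraries 6.28, 6.95, 7.71, 8.10 and 8.32 CPM. Fasted wild-type libraries held 16.1, 15.9, 25.5, 27.8 and 25.7 CPM, and fasted cKO libraries 7.0, 4.81, 7.53, 7.38 and 7.16 CPM. The genotypes did not overlap, and fasted wild-type replicates 1 and 2 sat well below replicates 3 to 5. In fasted cKO libraries, replicates 1 and 2 also lay below replicates 3 to 5, replicate 1 only narrowly. Means were 19.3 ± 2.59 and 7.47 ± 0.84 CPM in fed libraries, 2.58-fold lower in cKO (-1.36 ± 0.16). In fasted libraries they were 22.2 ± 5.73 and 6.78 ± 1.12 CPM, 3.28-fold lower (-1.71 ± 0.17). The fasted difference was -1.42 ± 0.23 from fasted replicates 1 and 2 alone and -1.84 ± 0.16 from replicates 3 to 5.

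Cyba was the least abundant of the 4 in reads, and its cKO level was low whether or not the mice had fasted. Fed wild-type libraries held 10.1, 7.90, 6.49, 7.32 and 5.54 CPM, and fed cKO libraries 2.09, 2.27, 4.97, 3.32 and 3.61 CPM. Fasted wild-type libraries held 13.1, 14.3, 13.7, 14.6 and 9.49 CPM, and fasted cKO libraries 4.75, 3.67, 3.36, 3.18 and 3.70 CPM. The genotypes did not overlap in either state, but the fed gap was narrow, between 4.97 and 5.54 CPM. Means were 7.47 ± 1.71 and 3.25 ± 1.16 CPM in fed libraries, 2.29-fold lower in cKO (-1.19 ± 0.21). Fasted means were 13 ± 2.08 and 3.73 ± 0.61 CPM, 3.50-fold lower (-1.80 ± 0.22). The fasted difference was -1.69 ± 0.34 from fasted replicates 1 and 2 alone and -1.89 ± 0.28 from replicates 3 to 5.

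Cited2 was the gene that was higher in cKO neurons, and the size of its difference depended on feeding. Fed wild-type libraries held 36.4, 30.8, 34.0, 37.7 and 31.9 CPM, and fed cKO libraries 86.7, 75.9, 80.9, 78.6 and 84.0 CPM. Fasted wild-type libraries held 102.7, 107.7, 92.2, 96.3 and 81.2 CPM, and fasted cKO libraries 101.3, 127.1, 141.7, 134.5 and 121.0 CPM. The fed genotypes were far apart, whereas the fasted genotypes overlapped between 101 and 108 CPM, through cKO replicate 1 and wild-type replicates 1 and 2. Means were 34.2 ± 2.91 and 81.2 ± 4.28 CPM in fed libraries, 2.38-fold higher in cKO (+1.25 ± 0.09), and 96.0 ± 10.2 and 125 ± 15.4 CPM in fasted ones, 1.30-fold higher (+0.38 ± 0.08). The fasted difference was 0.13 ± 0.10 from replicates 1 and 2 alone, where Cited2 was no longer among the genes called (edgeR adjusted p under 0.05) in both states, and 0.55 ± 0.08 from replicates 3 to 5. The direction was thus the same in both feeding states, but the fasted difference was smaller and rested on replicates 3 to 5.

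**Figure D1:**
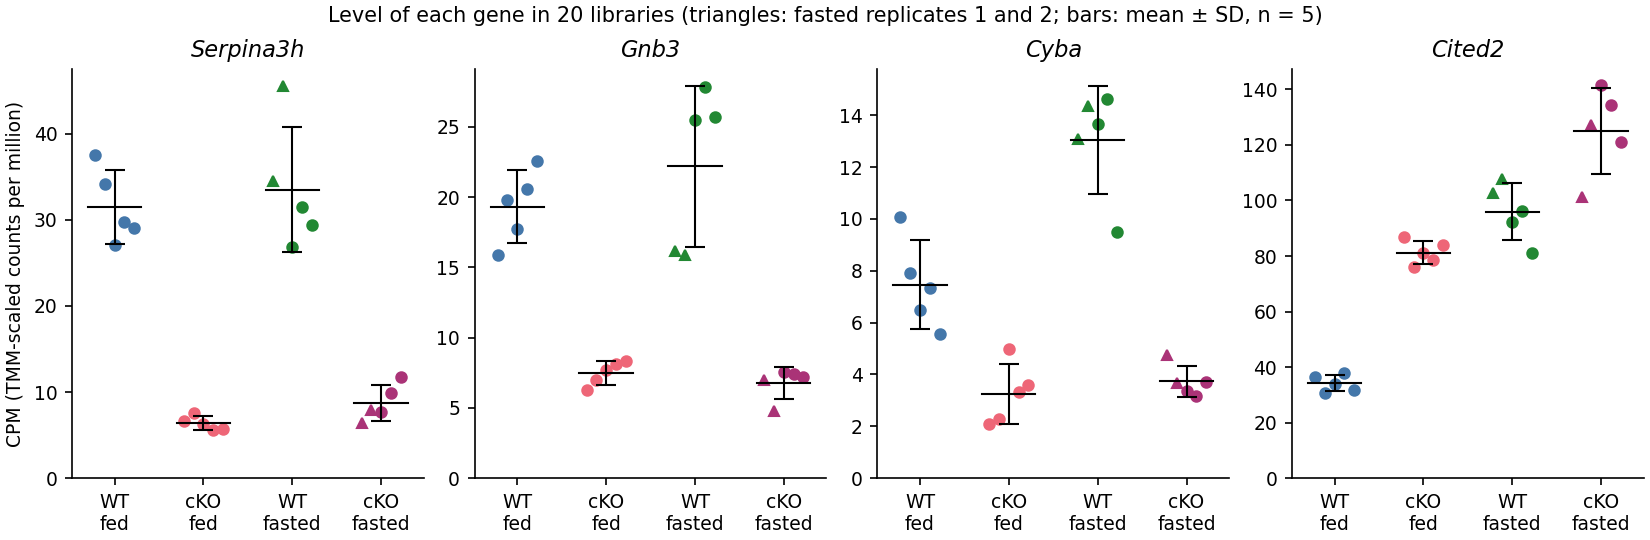
CPM (TMM-scaled, linear axes from 0) of Serpina3h, Gnb3, Cyba and Cited2 in each of 20 libraries, with the mean ± SD of 5 libraries per group as lines and triangles for fasted replicates 1 and 2. Genotypes do not overlap for the first 3 genes, and for Cited2 the fasted genotypes overlap between 101 and 108 CPM.

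These values can be read against all 13237 tested genes, though the selection fixes the outcome for the 4 chosen. With edgeR's quasi-likelihood test and an adjusted p under 0.05 over all tested genes, 5.87% of genes were higher and 3.81% lower in fed cKO neurons, and 11.5% were higher and 8.84% lower in fasted ones. Upper-quartile scaling turned that fasted split from 1517 higher and 1170 lower genes to 1232 and 1575. The same sign in both states, called or not, was shared by 47.5% of genes. A call in the same direction in both states was made for 62 genes that were lower (0.468%) and 115 that were higher (0.869%), and all 4 genes were among those 177. By the smaller of its fed and fasted differences, Serpina3h ranked 1, Gnb3 5 and Cyba 7 of the 62 lower genes, and Cited2 61 of the 115 higher genes. The genotype ranges did not overlap for 14.5% of genes in fed libraries, which held for all 4, and for 8.96% in fasted libraries, which held for Serpina3h, Gnb3 and Cyba. A further 222 genes were called in both states with opposite signs, more than the 177 with the same sign.

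**Figure D2:**
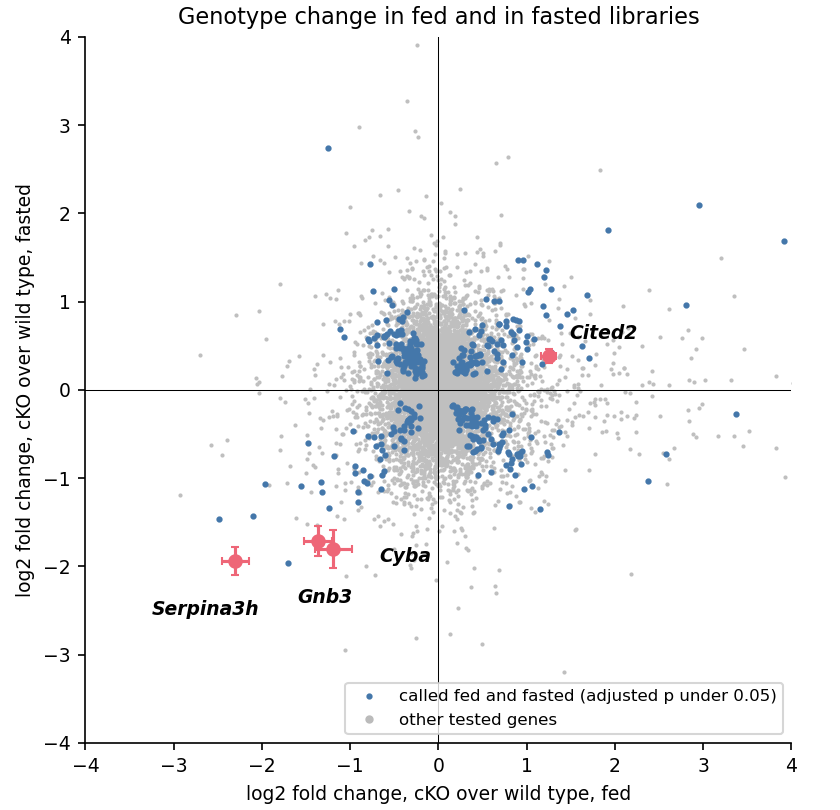
Log2 fold change of cKO over wild type in fed libraries (x) against fasted libraries (y) for 13219 of 13237 tested genes, the other 18 lying beyond the axis limit of 4, with blue points for genes called in both states and red points with SE bars for the 4 genes described. Serpina3h, at -2.30 and -1.94, lies farthest into the quadrant of genes lower in both, and Cited2 lies closer to the fed axis.

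By CPM per kilobase of exon, a scale on which genes can be compared, Cited2 was the highest of the 4 in every group except fed wild-type. In fed wild-type neurons the mean CPM per kilobase was 22 ± 2.97 for Serpina3h, 13.9 ± 1.18 for Cited2, 7.33 ± 0.98 for Gnb3 and 7.19 ± 1.64 for Cyba. The last 2 did not differ beyond their spread. In fed cKO neurons it was 33.1 ± 1.74 for Cited2, 4.45 ± 0.55 for Serpina3h, 3.13 ± 1.12 for Cyba and 2.84 ± 0.32 for Gnb3, so Cited2 stood above Serpina3h there. In fasted neurons Cited2 stood at 39.1 ± 4.15 in wild-type and 50.9 ± 6.28 in cKO libraries, above the other 3 in each. Cyba at 12.6 ± 2.0 lay above Gnb3 at 8.44 ± 2.18 in fasted wild-type libraries.

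Fasting averaged over both genotypes raised Cited2 and Cyba. Serpina3h was slightly higher, a call that did not hold in every alternative run. Among all tested genes, 32.4% rose and 35.4% fell with fasting, so a call in this comparison was common. Cited2 rose 2.08-fold (log2 1.06 ± 0.06; edgeR adjusted p = 5.5e-15), and its fed and fasted libraries did not overlap in wild-type neurons (2.81-fold, as for 45.0% of genes) or in cKO neurons (1.54-fold, as for 39.6%). Every alternative run left this call in place, with values of 1.03 to 1.09. Within a genotype the log2 change was 1.49 ± 0.09 in wild-type and 0.62 ± 0.08 in cKO neurons, a difference of -0.87 ± 0.12. That value is also the fasted minus the fed genotype effect and carries no test, since the selection used those effects. The same quantity was 0.36 ± 0.22 for Serpina3h, -0.35 ± 0.23 for Gnb3 and -0.61 ± 0.31 for Cyba. Fed cKO (75.9 to 86.7 CPM) and fasted wild-type (81.2 to 107.7 CPM) libraries of Cited2 overlapped.

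Cyba, the p22phox gene, rose 1.41-fold (0.49 ± 0.15; edgeR adjusted p = 0.00588), and the call held under every alternative run (0.35 to 0.61). The change was 0.80 ± 0.20 in wild-type and 0.19 ± 0.23 in cKO neurons, and the fed and fasted libraries overlapped in both. Serpina3h changed by 0.09 ± 0.14 in wild-type and 0.45 ± 0.17 in cKO neurons. Averaged over both, it was 1.2-fold higher (0.27 ± 0.11, edgeR adjusted p = 0.0316). That call was lost, at log2 changes of 0.20 to 0.25, without fed wild-type replicate 3 or 5, fed cKO replicate 4 or 5, fasted wild-type replicate 2, or fasted cKO replicate 4 or 5. Its highest adjusted p among these was 0.0973 (edgeR), and offsets for gene length and GC content brought the change to 0.025 ± 0.11 (adjusted p = 0.848). Gnb3 did not pass (0.033 ± 0.12; edgeR adjusted p = 0.815). From fasted replicates 1 and 2 alone it was lower by -0.31 ± 0.14 (adjusted p = 0.0419) and from replicates 3 to 5 higher by 0.22 ± 0.10 (adjusted p = 0.0635), so its sign depended on the set. The wild-type libraries among replicates 1 and 2 were those at 15.9 and 16.1 CPM.

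**Figure D3:**
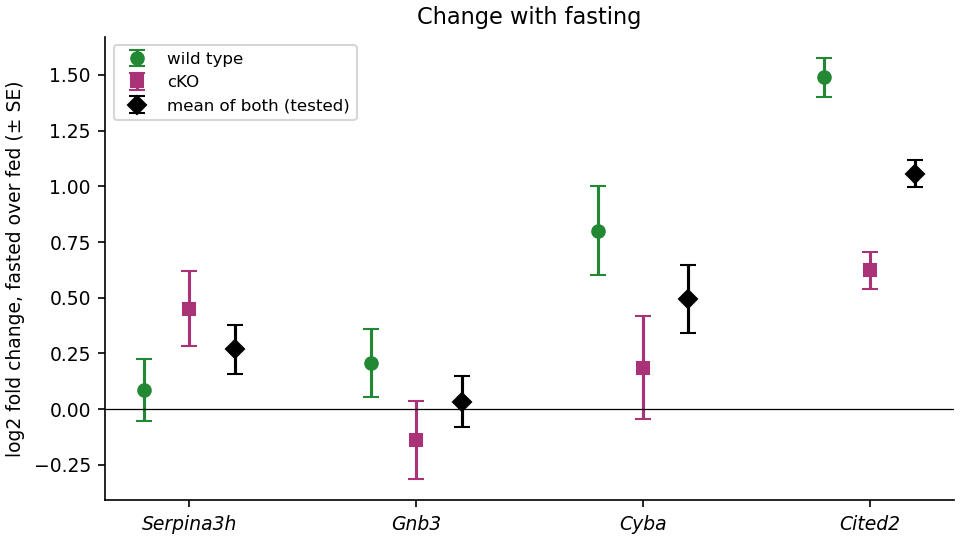
Log2 fold change of fasted over fed ± SE for each gene in wild-type neurons (circles), in cKO neurons (squares) and as the mean of both, which is the tested value (diamonds). Cited2 has the largest mean change at 1.06, and its change in wild-type neurons, 1.49, stands above that in cKO neurons, 0.62.

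No other tested serpin of clade A was called lower in both states. Of 5 other tested serpins of clade A, 1 rose and 0 fell in fed cKO neurons and 2 rose and 1 fell in fasted ones, and 0 fell fed with DESeq2 or at an unadjusted p under 0.05. The median log2 difference was 0.68 fed and -0.01 fasted, beside 0.01 and -0.01 over all tested genes. Serpina3c rose from 20.3 ± 3.44 to 43.2 ± 9.38 CPM in fed neurons (1.09 ± 0.13; edgeR adjusted p = 1.17e-06) and from 19.2 ± 2.98 to 28.5 ± 2.0 CPM in fasted ones (0.57 ± 0.14; 0.00407). Serpina3f, the relative most identical to Serpina3h over the aligned bases, rose in fasted cKO neurons (1.14 ± 0.39; edgeR adjusted p = 0.0405), where Serpina3h was lower. Serpina3n, the most abundant of the group in reads, fell there (-0.57 ± 0.12; edgeR adjusted p = 0.0013), and its wild-type libraries were widely spread at 1471 ± 445 CPM. Serpina3i, at 42.9 ± 4.32 CPM in fed wild-type and 36.5 ± 2.30 in fed cKO libraries, did not pass for genotype (adjusted p = 0.218 fed and 0.963 fasted) and fell with fasting (-1.01 ± 0.09; edgeR adjusted p = 2.37e-11).

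Of 12 other tested serpins, 3 fell and 0 rose in fed cKO neurons, and 1 rose and 1 fell in fasted ones, with medians of -0.13 and -0.32. For the fed comparison, DESeq2 also called 3 lower and 0 higher. At an unadjusted p under 0.05 with edgeR, 4 were lower and 1 higher fed. Serpinh1, the collagen chaperone HSP47, fell in fed cKO neurons (-1.46 ± 0.25; edgeR adjusted p = 0.000217), as did Serpine2, the protease nexin (-0.83 ± 0.18; 0.00249). Serpini1, neuroserpin, fell by 0.32 in both states (edgeR adjusted p = 0.0332 fed and 0.0203 fasted). Serpinb6a rose in fasted cKO neurons (0.20 ± 0.06; edgeR adjusted p = 0.0222).

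Among the other G protein beta subunits, none fell with Gnb3 at an adjusted p under 0.05: of 4 tested, 1 rose and 0 fell in fed and 1 rose and 0 fell in fasted cKO neurons. At an unadjusted p under 0.05, 1 fell fed and 0 fell fasted, and DESeq2 called 0 lower in either state. The medians were -0.12 and 0.01. Gnb4 rose in fed cKO neurons (0.37 ± 0.07; edgeR adjusted p = 0.000357) and Gnb5, the subunit that pairs with RGS proteins, in fasted ones (0.32 ± 0.09; 0.0161). Of 7 tested gamma subunits, 1 rose in fed and 3 in fasted cKO neurons and 0 fell in either, also with DESeq2 or at an unadjusted p under 0.05. These were Gng4 in fed neurons (0.50 ± 0.09; edgeR adjusted p = 0.000289), and Gng5 (0.61 ± 0.14; 0.00309), Gng3 (0.19 ± 0.05; 0.00567) and Gng12 (0.66 ± 0.19; 0.0137) in fasted ones. With fasting over both genotypes, 3 of the 4 beta subunits fell and 1 rose, and 4 of the 7 gamma subunits rose and 1 fell.

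The oxidase partners of Cyba were scarce in these neurons. Cybb, the NOX2 catalytic subunit, had at most 7 counts in a library, Nox1 at most 8 and Nox4 at most 2, and Nox3, Noxa1 and Duoxa1 had 0 counts in every library. The cytosolic subunit gene Ncf1 reached 16 counts. Besides Cyba, only the organiser Noxo1 and the small GTPase Rac1 of this list of 17 were tested, and 0 of these 2 passed for genotype in either state (edgeR, adjusted p of 0.476 to 0.752; also 0 with DESeq2 or at an unadjusted p under 0.05). Rac1 lay between 407 and 446 CPM in the group means. Of 14 tested enzymes that clear superoxide and peroxide, 1 rose and 0 fell in fed cKO neurons and 3 rose and 1 fell in fasted ones. For the fed comparison, DESeq2 also called 1 higher and 0 lower. At an unadjusted p under 0.05 with edgeR, 3 were higher and 1 lower fed. The peroxiredoxin Prdx4 rose fed (0.19 ± 0.06; edgeR adjusted p = 0.0315) and fell fasted (-0.26 ± 0.06; 0.00201). Prdx3 (0.30 ± 0.06; 0.00137), the thioredoxin reductase Txnrd1 (0.46 ± 0.07; 6.09e-05) and Prdx1 (0.16 ± 0.05; 0.0324) rose in fasted cKO neurons.

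Of the 13 tested relatives and partners of Cited2, 0 passed in fed cKO neurons and 1 rose in fasted ones, Hif1a (0.24 ± 0.08; edgeR adjusted p = 0.025). The fed count was also 0 with DESeq2 and at an unadjusted p under 0.05. The coactivator genes Ep300 and Crebbp did not pass for genotype. Cited1, the close relative at 1198 to 1906 CPM in the group means, did not pass either, and it rose with fasting (0.59 ± 0.06; edgeR adjusted p = 2.75e-10). With fasting, 6 of these 13 rose and 3 fell. Of 19 tested HIF target genes, 4 rose and 2 fell in fed cKO neurons, and 5 rose and 2 fell in fasted ones, with medians of 0.03 and 0.01. Bnip3, a mitophagy receptor, rose fed (0.57 ± 0.06; edgeR adjusted p = 6.68e-08), and Higd1a fell fed (-0.34 ± 0.05; 1.5e-05). The collagen prolyl hydroxylase P4ha1 rose fasted (0.55 ± 0.08; 1.07e-05), and P4ha2 fell fed (-0.54 ± 0.09; 0.000154) and rose fasted (0.37 ± 0.10; 0.00667). In this HIF list 1 gene was called higher in both states, Ndrg1 (0.49 ± 0.13 fed; edgeR adjusted p = 0.0179; 0.73 ± 0.16 fasted; 0.00169).

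**Figure D4:**
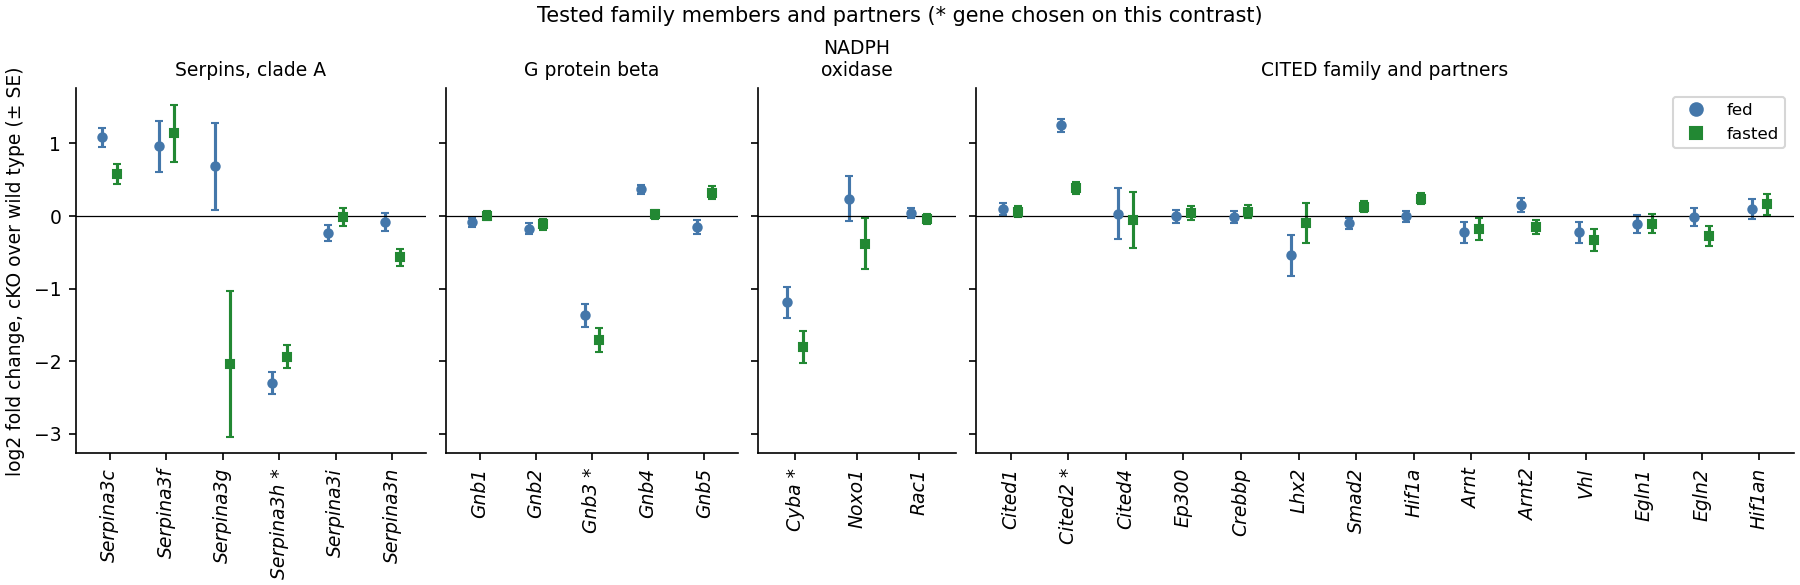
Log2 fold change of cKO over wild type ± SE in fed (circles) and fasted (squares) libraries for the tested genes of 4 of the lists, with an asterisk on the gene that was chosen on this contrast. Serpina3h, Gnb3 and Cyba lie below the other genes of their panels in the fed state, and Cited2 lies above its partners.

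Genes close by on the chromosome were counted in the same way, and those called had both signs over the 4 surroundings. Of tested genes whose start lay within 500 kb, 5 surround Serpina3h, 31 Gnb3, 12 Cyba and 3 Cited2. The 5 around Serpina3h are Serpina3 genes already described, from Serpina3c to Serpina3n. Around Gnb3, 1 rose and 2 fell in fed cKO neurons and 0 rose and 2 fell in fasted ones (at an unadjusted p under 0.05 with edgeR, 2 were higher and 7 lower, and DESeq2 called 0 higher and 4 lower). The nearest called were Usp5, a deubiquitinase gene 10.8 kb away (fasted -0.35 ± 0.09; edgeR adjusted p = 0.00734), Lrrc23 at 60.5 kb (fed -2.58 ± 0.72; 0.0212; 0.93 CPM on average) and Pianp at 156 kb (fasted -0.22 ± 0.08; 0.0435). Around Cyba, 0 rose and 2 fell fed (1 and 4 at an unadjusted p under 0.05, 0 and 2 with DESeq2) and 2 rose and 1 fell fasted. Mvd, of the mevalonate pathway and 10.5 kb away, fell fed (-0.59 ± 0.14; edgeR adjusted p = 0.00531), Aprt at 144 kb rose fasted (0.33 ± 0.07; 0.00216) and Trappc2l at 179 kb fell fasted (-0.16 ± 0.05; 0.0402). Around Cited2, Heca at 225 kb rose (0.66 ± 0.17; edgeR adjusted p = 0.0144) and Abracl at 300 kb fell (-0.55 ± 0.17; 0.0399) in fed cKO neurons, and 0 of 3 passed fasted (1 fell at an unadjusted p under 0.05 with edgeR, and DESeq2 called 0).

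**Figure D5:**
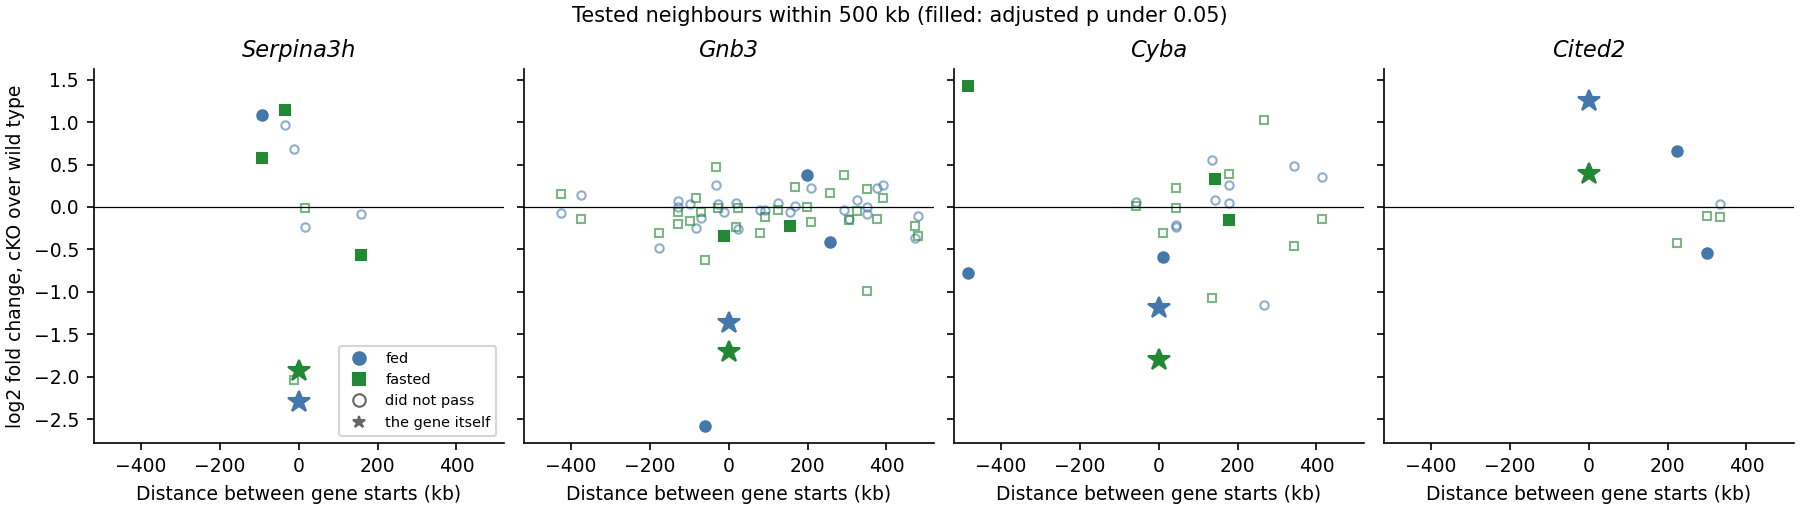
Log2 fold change of cKO over wild type for tested genes by distance between gene starts in kilobases, within 500 kb of each gene, with fed circles, fasted squares, filled marks for adjusted p under 0.05 and stars for the gene itself. Around Gnb3, most of the 31 neighbours lie within 0.5 of 0 while Gnb3 itself lies at -1.36 and -1.71.

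The 4 genes could also be placed by the genes whose pattern over the 20 libraries was most like theirs, by the root mean square difference of mean-centred log2 CPM. Serpina3h, whose own spread around its mean was 1.08, was nearest to Gnb3 (0.53), Cyba (0.56) and Klf14, a Krüppel-like transcription factor gene (0.59). The nearness of Serpina3h, Gnb3 and Cyba to each other is partly fixed by the selection, which used their genotype differences. Gnb3 (0.79) was nearest to Sh3bgr (0.41), Ly75 (0.42) and Fxyd7, a modulator of the sodium pump (0.43). Sh3bgr had 11.6, 7.38, 12.9 and 5.93 CPM in the fed wild-type, fed cKO, fasted wild-type and fasted cKO means. Cyba (0.85) was nearest to Parp16 (0.40), whose means were 3.44, 2.14, 6.54 and 2.43 CPM in the same order, and to Gnb3 (0.47). Cited2 (0.71) had the closest matches: Gpr6, an orphan G-protein-coupled receptor (0.20), Hs3st1, a heparan sulfate sulfotransferase (0.22), and Errfi1, a feedback inhibitor of EGF receptor signalling (0.24). Gpr6 had 8.39, 22.9, 28.8 and 33.7 CPM in that order, Hs3st1 54.3, 109.0, 139.9 and 193.1, and Errfi1 34.7, 61.7, 91.0 and 101.5. Each thus had its lowest mean in fed wild-type neurons and its highest in fasted cKO neurons, as Cited2 did, which follows from choosing them by likeness.

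Some of these genes are known from other cell types, so markers of those types were measured beside them. Of 12 microglial and macrophage markers, where Cyba and Cybb are abundant, 0 were tested, their sum ran from 0.239 to 2.49 CPM over all libraries, and Tmem119 was at 0 in every library. Of the 5 neutrophil and lymphocyte markers in the table, S100a8, S100a9 and Cd3e were at 0 throughout. Lyz2, a lysozyme gene of myeloid cells on that list, had 4 to 62 counts in each library. Its means were 3.96 CPM in fed wild-type, 2.52 in fed cKO, 2.32 in fasted wild-type and 1.92 in fasted cKO libraries, and it did not pass for genotype (edgeR adjusted p = 0.326 fed and 0.684 fasted). The 5 markers together summed to 3.28 to 4.83, 1.31 to 5.11, 0.517 to 4.96 and 0.794 to 2.63 CPM in that order, and their part in the values of Cyba was not tested. The 8 astrocyte markers had summed levels of 7.85 to 14.4 CPM over fed wild-type libraries, 28.0 to 57.3 over fed cKO, 34.3 to 61.0 over fasted wild-type and 43.1 to 96.6 over fasted cKO libraries. The largest part of that sum was Agt, at a mean of 5.22, 35.2, 35.9 and 53.7 CPM in that order. From fed to fasted wild-type libraries, the mean of Aldh1l1 went from 1.64 to 4.59 CPM, that of Slc1a3 from 0.61 to 2.79 and that of Gja1 from 0.94 to 2.78, while Gfap and Aqp4 were at most 0.574 and 0.448 CPM in any group mean. In fed cKO libraries the means of Aldh1l1, Slc1a3 and Gja1 were 1.36, 0.57 and 0.28 CPM, below the fed wild-type values. From fed wild-type to fed cKO libraries, Sox9 went from 0.998 to 0.314 CPM, Gfap from 0.574 to 0.385 and Aqp4 from 0.396 to 0. S100b went the other way, from 0.223 to 0.304 CPM. The group means of Agt had the same order as those of Cited2, 1 of the 5 tested astrocyte markers rose in fed cKO neurons, and their part in the values of Cited2 was not tested. The 4 markers of Pomc neurons summed to 313 to 471 CPM in the first 3 groups and 440 to 1099 CPM in fasted cKO libraries, and their part was likewise not tested. The 10 tanycyte and ependymal markers summed to 59.8 to 86.7, 56.5 to 65.7, 42.2 to 78.0 and 47.7 to 70.2 CPM in that order. Of 7 tested, 1 fell in fed and 1 rose in fasted cKO neurons. The 8 oligodendrocyte-lineage markers summed to 90.5 to 105, 82.7 to 103, 49.9 to 74.0 and 49.7 to 65.7 CPM. Of 4 tested, 1 rose in fed cKO neurons and 0 passed fasted. The part of both lists in the values of the 4 genes was not tested.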

How the data were processed

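Poly(A) RNA of sorted AgRP neurons was amplified with a SMART-seq v4 kit (15 cycles) and made into Nextera XT libraries, per the labels' protocols. Neither kit marks strand. Per the submitters' processing notes, reads were processed with Trimmomatic 0.36, HISAT2 2.1.0, featureCounts of Subread 1.6.2 and DESeq2 1.20.0 on GRCm38. Which annotation and counting settings were used is not given in the sources used here. Of the 2 tables, the deposited raw counts per gene were used, and the deposited normalized table was not used here. The table holds 23129 genes, 3897 without a count.

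For the tests, edgeR 4.0.16 was run on the counts under R 4.3.3 (TMM factors, minimum count 10 and minimum total 15, 4 group means over 20 libraries, quasi-likelihood test), which kept 13237 genes, holding 99.9% of the counts. The Benjamini-Hochberg method was used to adjust p-values over all tested genes. CPM use TMM-scaled library sizes, and group values are mean ± SD. "Rose" and "fell" mean an adjusted p under 0.05. Alternatives were DESeq2 1.42.0, other size factors and filters, a term for replicate number, offsets for GC content and length, and fits without single libraries or sets of fasted libraries. On simulated counts, 200 changed genes were drawn from those above a minimum mean count. Changes of 1.5-fold and 2-fold were recovered in 85% and 97% of cases for fasting (13083 genes tested). The shares were 75% and 93% for fed genotypes (13065) and 67% and 88% for fasted genotypes (13061). These shares do not cover the least abundant tested genes.

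The genes described and the lists were chosen with earlier results of these data known. Named beside them were up to 4 list genes per pathway with the smallest adjusted p in a genotype comparison, up to 3 nearest called neighbours within 500 kb, the 3 most alike genes and defining markers, except for items that are not reported here. Serpina3i, Cited1, Ep300, Crebbp, Rac1, Noxo1, Ndrg1 and the scarce oxidase subunits were named in addition, after their values were seen. Coordinates, exon lengths and overlaps came from GENCODE M21, and promoters from RefSeq.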

Additional observations from a re-analysis of the deposited data

Results flagged for a closer look

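In fasted cKO libraries, Gnb3 at 4.81 CPM in replicate 2 stood apart from the other 4 libraries at 7.0 to 7.53 CPM. Its gap to the nearest library was 0.806 of the group's whole range, above the critical value of 0.71 for 5 libraries. Chance flags about 1 in 20 such groups. Each of the 4 genes was checked in each of the 4 groups, and this was the only flag, so 1 flag by chance would be unremarkable. Without that library, the fasted genotype difference of Gnb3 was -1.61 on the log2 scale, beside -1.71 with it, and this was the smallest difference among the fits that left out 1 library (-1.81 to -1.61).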

How the results depend on the processing

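Over 29 alternatives, the fed genotype differences of all 4 genes, the fasted difference of Cyba and the fasting calls of Cyba and Cited2 kept their direction and their side of the threshold where tested. Serpina3h's fasting change, 0.27, no longer passed without fasted replicates 3 to 5 (0.25; edgeR adjusted p = 0.078) or with GC and length offsets (0.025; 0.848). Leaving out 1 library gave it 0.20 to 0.31 (adjusted p from 0.012 to 0.0973), lost in 7 of 20 such fits. Gnb3's fasting change, 0.033, was -0.31 without fasted replicates 3 to 5, and leaving out 1 library gave -0.014 to 0.083, with the reversal in the fit without fasted wild-type replicate 4. Without fasted replicates 1 and 2, and without 3 to 5, Serpina3h's fasted genotype difference was -1.59 and -2.46, and Cited2's was 0.55 and 0.13; Gnb3's was -1.42 without 3 to 5. Genes called for genotype numbered 1281 fed and 2687 fasted. Fed calls were 2520 without fasted replicates 1 and 2 and 2584 without 3 to 5, and fasted calls 1682 without 3 to 5. The cause was not tested. Genes lower and higher in both states numbered 167 and 249 without fasted replicates 1 and 2, and 79 and 160 without 3 to 5, beside 62 and 115; leaving out fed cKO replicate 2 gave 39 lower. Calls of opposite sign, 222, numbered 516 and 338 in those 2 fits. A replicate block gave fasting changes of 0.27, 0.019, 0.49 and 1.06 for Serpina3h, Gnb3, Cyba and Cited2 and 9001 genes called for fasting, and changed no call of these genes. Of 30 same-numbered pairs of libraries, 2 had correlated deviations above 0.1 (-0.054 to 0.13, median 0.0019), so the numbers were not used to pair the libraries. Both of those joined fasted wild-type and fasted cKO libraries, where same-numbered pairs ran from 0.022 to 0.13. Weak correlations of this size cannot exclude a pairing of the fasted libraries. Depth limits Cyba most, with 24 to 146 counts a library.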
